A study of Homo sapiens with 6 samples.

Results

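The genes of the natriuretic peptide system and ANKRD1 were followed in RNA sequencing of human cardiomyocytes exposed to alcohol. The set was chosen by name, with earlier results of these data known, and holds 8 of the 21134 genes listed in the series. NPPA and NPPB encode the hormones, CORIN and FURIN encode proteases that process the prohormones, and NPR1, NPR2 and NPR3 encode receptors. ANKRD1 was added as a cardiac muscle gene that is often read together with NPPA and NPPB as a sign of mechanical or hypertrophic stress. All 8 symbols were found.

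The cells were cardiomyocytes differentiated in culture, called hiPSC-CMs in the labels, from the line H9. H9 is an established line of human embryonic stem cells, so every library comes from a single line. The 6 libraries fall into 3 groups of 2, which are untreated cells (control), cells in 100 mM alcohol for 24 h (alcohol), and cells in 100 mM alcohol and 1 μM losartan for 24 h (co-treated). Losartan blocks the type 1 receptor of angiotensin II. No group received losartan without alcohol, so a response to losartan alone was not measured. The study asked what alcohol does to cardiomyocytes and whether blocking that receptor alters it. Nothing in the labels says that the 2 libraries of a group came from separate differentiations, so the p-values measure the spread between these libraries, which may be technical.

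Atrial natriuretic peptide (ANP, from NPPA) and brain natriuretic peptide (BNP, from NPPB) are made by heart muscle as prohormones. Corin, a protease on the surface of cardiomyocytes, cuts the ANP prohormone, and furin cuts the BNP prohormone on its way out of the cell. NPR1 is the receptor of both hormones and makes cyclic GMP when bound, NPR2 is the equivalent receptor for C-type natriuretic peptide, and NPR3 removes the peptides from the circulation. NPPA and NPPB are active in the embryonic heart, fall after birth in the ventricles and rise again in strained or failing muscle. ANKRD1 encodes an ankyrin repeat protein that sits beside titin and myopalladin in the sarcomere and is also found in the nucleus, and it is widely used as a readout of the coactivator YAP.

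The 2 hormone genes are neighbours. In GRCh38 with the GENCODE v29 annotation, NPPA lies at chr1:11845709-11848345 and NPPB at chr1:11857464-11858931, both on the minus strand and 9118 bases apart.

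Promoters of 7 of the 8 genes, all but NPPB, were found in a RefSeq table (GRCh38.p14) of 300-base windows, each running from before to just after a start site, with 11 windows in all. They were searched on both strands for GATAA, the core of sites that GATA factors bind, for CATTCC, the M-CAT element that TEAD factors bind, and for TATAA, the core of the TATA box. The motifs do not overlap in the windows shown. The following stretches of 30 bases hold the matches in NPPA and ANKRD1, on the gene's own strand with the match in capitals, because these genes are among the most abundant described next.
NPPA chr1:11847907-11847936: gccctgcgggatGATAActttaaaagggca
NPPA chr1:11847861-11847890: cacttggcagctTTATCactgcaagtgaca
NPPA chr1:11847795-11847824: gagctggggggcTATAAaaagaggcggcac
ANKRD1 chr10:90921290-90921319: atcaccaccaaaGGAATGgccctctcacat
ANKRD1 chr10:90921198-90921227: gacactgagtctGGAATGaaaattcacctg
ANKRD1 chr10:90921122-90921151: caggttggaagaTTATCtcacccggcccca
ANKRD1 chr10:90921100-90921129: cggccccagctaTATAAgctgaccggtgtg
TTATC is GATAA and GGAATG is CATTCC read on the other strand. NPPA held 2 matches to GATAA, none to CATTCC and 1 to TATAA. ANKRD1 held 1 match to GATAA, 2 to CATTCC and 1 to TATAA. Of the other 5 genes, FURIN held 1 match to GATAA and 1 to TATAA over its 4 windows and NPR3 held 1 to CATTCC over its 2, while the single windows of NPR1, NPR2 and CORIN held none. Among all 35116 windows of the same length, 22.7% held GATAA, 14.03% held CATTCC and 20.4% held TATAA. A match describes the letters of the window and is not evidence of binding.

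Each library held 4898287 to 5051448 expected counts in all, where an expected count is an estimate of the reads of a gene. A count of 3, taken as the floor, corresponds to 0.594 to 0.612 CPM (counts scaled to the size of the library). Cardiomyocyte markers were all present in every library. Their summed FPKM (counts scaled by transcript length and library size) ranged from 10751 to 14755, and that of 7 endothelial and endocardial markers from 21.2 to 26.1. Which replicates lay furthest apart depended on the measure. The chi-square per degree of freedom over genes was largest for the alcohol pair (7.81), with 4.79 for the control pair and 4.71 for the co-treated pair. The median absolute log2 difference was largest for the co-treated pair (0.215), with 0.194 for the alcohol pair and 0.176 for the control pair. The correlation of log2 CPM was 0.9747 for the alcohol pair and for the co-treated pair, and 0.9776 for the control pair. The fold changes of NPPA, NPPB and ANKRD1 in alcohol against control are given with and without each alcohol library, and those of the listed genes are not.

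NPPA, NPPB and ANKRD1 were among the most abundant transcripts of the untreated cells. By mean FPKM in control, NPPA ranked 5, NPPB 22 and ANKRD1 24 of the 21134 genes. CORIN ranked 519 and FURIN 3321, so both processing proteases were expressed. The receptors were scarce, with NPR2 at rank 10503, NPR3 at 18513 and NPR1 at 18782, the last pair at a mean FPKM of 0.09 or less.

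**Figure D1:**
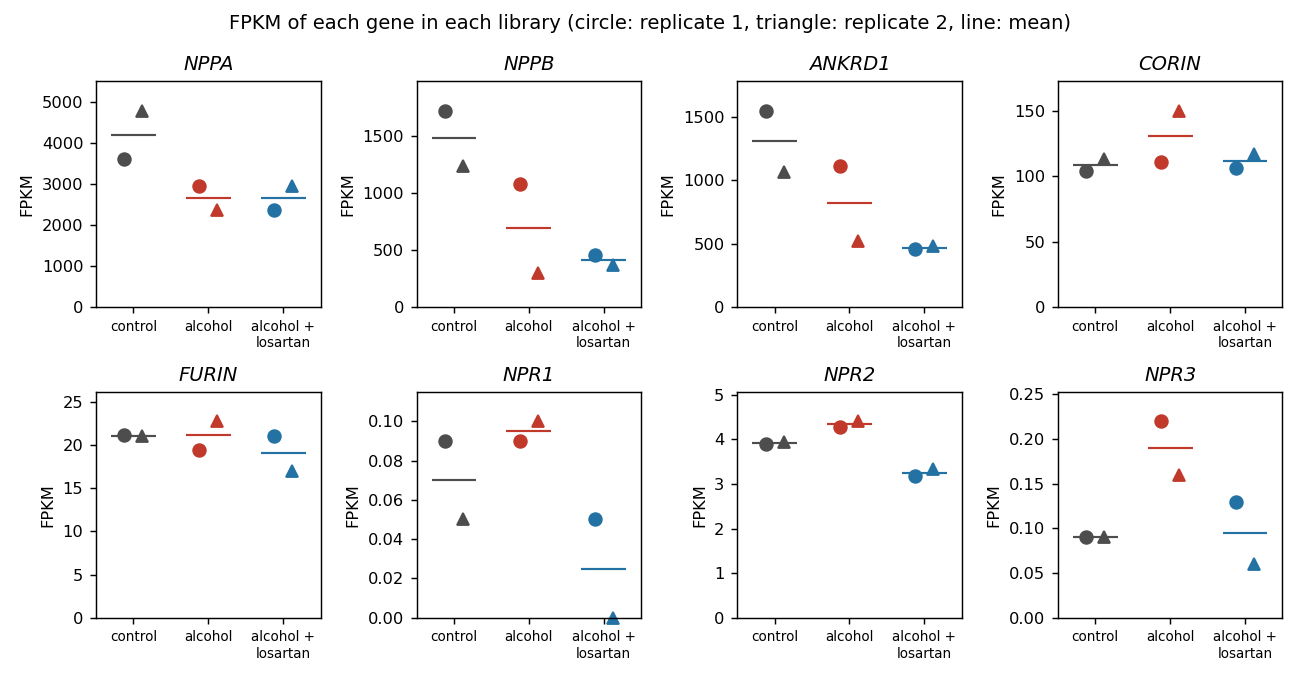
FPKM (vertical axes, linear from 0, scaled for each gene) of the 8 genes in the 6 libraries, grouped as control, alcohol and alcohol + losartan, with circles for replicate 1, triangles for replicate 2 and lines for group means. NPPA, NPPB and ANKRD1 are highest in control on average, alcohol replicate 1 and replicate 2 are far apart for NPPB (1079 and 301), and NPR1 and NPR3 lie near 0 throughout.

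Of the 8 genes, 6 had enough counts to be tested by edgeR's quasi-likelihood F test with Benjamini-Hochberg adjustment over 14926 genes, and NPR1 and NPR3 did not. One of the 6 passed an adjusted p of 0.05 in any comparison of 2 groups. ANKRD1 fell in co-treated cells against control. In alcohol against control 0 of the 6 were called, against 0.0670% of all genes tested, and 3 had an unadjusted p under 0.05, all lower in alcohol (5.78% of all genes were that low). In co-treated cells against control 1 of the 6 was called, against 0.362% of all genes, and 3 had an unadjusted p under 0.05, all lower (6.37% of all genes). In co-treated cells against alcohol 0 of the 6 were called, against 0.0134% of all genes, and 1 had an unadjusted p under 0.05, lower in co-treated cells (2.71% of all genes). The 3 genes in the first comparisons were NPPA, NPPB and ANKRD1, and the 1 gene in the last was ANKRD1. As the set was chosen with earlier results known, these counts are not independent of its choice. Groups that do not overlap were common among all genes with 2 libraries each. Both libraries lay below both control libraries in alcohol for 2 of the 6 members, against 21.8% of all genes, and in co-treated cells for 5 of the 6, against 21.7% of all genes. Both co-treated libraries lay below both alcohol libraries for 2 of the 6, against 16.2%. Both comparisons with control use the same 2 control libraries, so their values are not independent of each other.

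NPPA, the ANP gene, had an FPKM of 3622 and 4799 in control, 2965 and 2363 in alcohol, and 2375 and 2966 in co-treated cells. Both control libraries lay above all 4 libraries with alcohol, and the 2 alcohol-containing groups covered the same range. The group means were 4211 ± 832, 2664 ± 425 and 2670 ± 418 (SD, n = 2 each). The log2 fold change against control was −0.69 (SE 0.18, edgeR, Benjamini-Hochberg adjusted p = 0.168) in alcohol and −0.70 (SE 0.18, adjusted p = 0.113) in co-treated cells, both short of the threshold. DESeq2 gave the same changes with adjusted p = 0.0130 and 0.00626, so by that tool NPPA fell in both groups. Co-treated cells and alcohol cells had a log2 difference of −0.01 with a 95% confidence interval of −0.39 to 0.38 (edgeR adjusted p = 0.997). Fewer cells that express a gene and less of its RNA in each cell cannot be told apart in such bulk samples.

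NPPA is overlapped on the opposite strand by the antisense gene NPPA-AS1 and, in GENCODE v29, by a transcript of CLCN6. The sources used here do not state whether the libraries kept strand, so reads of the overlap cannot be told apart. NPPA-AS1 had 139.9 to 258 expected counts per library, and NPPA had 9676 to 20181. The antisense gene had an FPKM of 24.3 and 31.1 in control, 23.5 and 19.7 in alcohol, and 17.3 and 26.0 in co-treated cells. For NPPA-AS1 the log2 fold change was −0.39 in alcohol (edgeR adjusted p = 0.520) and −0.40 in co-treated cells (adjusted p = 0.456).

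NPPB, the BNP gene, had an FPKM of 1721 and 1233 in control, 1079 and 301 in alcohol, and 456 and 365 in co-treated cells. Both control libraries were above the rest. The alcohol libraries lay at the top and at the bottom of the other 4, while the co-treated libraries were close together between them. The group means were 1477 ± 345, 689.6 ± 550.1 and 411 ± 64.6 (SD, n = 2 each), so the spread in alcohol was nearly as large as its mean. The log2 fold change in co-treated cells against control was −1.90 (SE 0.41, edgeR adjusted p = 0.0732), which ranked 25 from the lowest among the 14926 genes tested and did not pass the threshold. NPPB passed in 6 of 14 alternative fits of that comparison, among them the fit of the 2 groups alone (edgeR adjusted p = 0.000167) and, with 10 counts asked of every library, at 0.0473, but not by DESeq2 (0.269). In alcohol it was −1.12 (SE 0.40, edgeR adjusted p = 0.313). Between co-treated and alcohol cells it was −0.78 with a 95% interval of −1.65 to 0.09 (edgeR adjusted p = 0.900).

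The 2 hormone transcripts did not keep a fixed proportion. The ratio of NPPA to NPPB FPKM was 2.11 and 3.89 in control, 2.75 and 7.86 in alcohol, and 5.21 and 8.13 in co-treated cells. The lowest ratio was thus in a control library and both co-treated ratios were above both control ratios, while the alcohol libraries overlapped both groups. No test was run on this ratio, and with 2 libraries against 2 the smallest p an exact permutation test can give is 0.333.

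ANKRD1, the ankyrin repeat gene, had an FPKM of 1551 and 1062 in control, 1114 and 524 in alcohol, and 455 and 479.7 in co-treated cells. The co-treated libraries were the lowest 2 of the 6 and close together. One alcohol library lay within the control range and the other just above the co-treated libraries. The group means were 1306 ± 346, 819 ± 417 and 467 ± 17.8 (SD, n = 2 each). ANKRD1 was 2.89-fold lower in co-treated cells than in control, a log2 fold change of −1.53 (SE 0.29, edgeR adjusted p = 0.0410). In alcohol against control it was −0.70 (SE 0.28, edgeR adjusted p = 0.376). In co-treated against alcohol cells it was −0.83 with a 95% interval of −1.44 to −0.22 (edgeR adjusted p = 0.836), with both co-treated libraries below both alcohol libraries.

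The call for ANKRD1 was near the threshold. Its adjusted p was 0.136 by DESeq2, 0.0942 without a filter on low counts, and 0.136 and 0.150 by limma on log2(FPKM + 1) and log2(FPKM + 0.1). Without control replicate 1 the log2 fold change was −1.22 (edgeR adjusted p = 0.0988), and without co-treated replicate 1 or 2 it was −1.48 (0.217) and −1.59 (0.370).

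**Figure D2:**
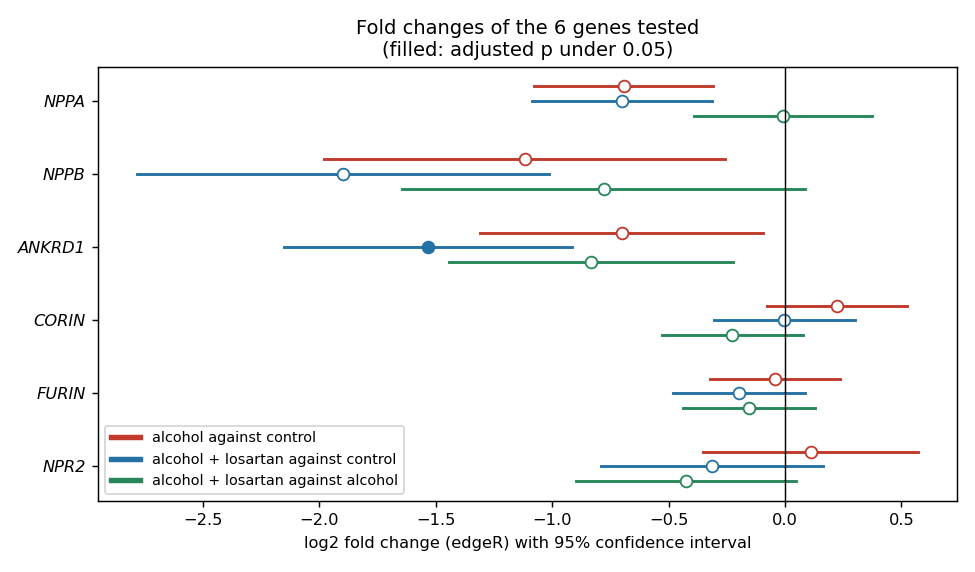
Log2 fold changes by edgeR (horizontal axis) with 95% confidence intervals for the 6 genes tested, in alcohol against control, alcohol + losartan against control, and alcohol + losartan against alcohol. The only filled point, for an adjusted p under 0.05, is ANKRD1 in alcohol + losartan against control (−1.53), and the intervals of CORIN, FURIN and NPR2 all cross 0.

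The alcohol group rested strongly on which of its libraries was used. Without alcohol replicate 1, the log2 fold changes in alcohol against control were −0.90 for NPPA (edgeR adjusted p = 0.0332), −2.37 for NPPB (0.000147) and −1.39 for ANKRD1 (0.00413), and all 3 were called. Without alcohol replicate 2 they were −0.50 (edgeR adjusted p = 0.766), −0.45 (0.869) and −0.23 (0.966), and none was called. Alcohol replicate 2 held the lowest NPPA and NPPB values of all 6 libraries, and alcohol replicate 1 the highest NPPB and ANKRD1 values outside control. In co-treated against alcohol cells, NPPB had a log2 fold change of 0.47 without alcohol replicate 1 (edgeR adjusted p = 0.782) and −1.44 without alcohol replicate 2 (0.0142). ANKRD1 had −0.14 (edgeR adjusted p = 0.944) and −1.30 (0.0372) in the same fits. The 2 alcohol libraries therefore gave different answers to whether co-treated cells differ from alcohol cells, in sign for NPPB and in size for ANKRD1.

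**Figure D3:**
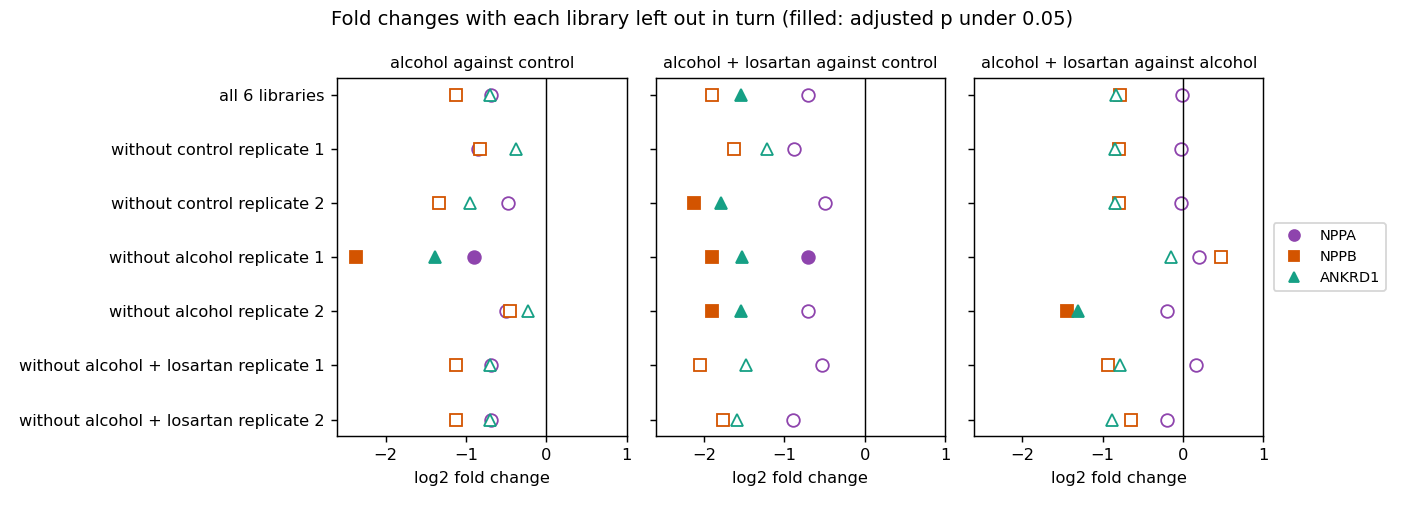
Log2 fold changes (horizontal axes) of NPPA (circles), NPPB (squares) and ANKRD1 (triangles) in the 3 comparisons with all 6 libraries and with each library left out in turn, filled where the adjusted p is under 0.05. In the left panel the 3 genes are called only without alcohol replicate 1, and in the right panel NPPB moves from 0.47 without that library to −1.44 without alcohol replicate 2.

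With both alcohol-containing groups pooled and set against control, the log2 fold changes were −0.70 for NPPA (SE 0.15, edgeR adjusted p = 0.0575), −1.51 for NPPB (SE 0.33, adjusted p = 0.0588) and −1.12 for ANKRD1 (SE 0.23, adjusted p = 0.0541). All 3 were just short of the threshold, and all 3 passed with 10 counts asked of every library (edgeR adjusted p = 0.0478, 0.0411 and 0.0387), while DESeq2 called NPPA alone (adjusted p = 0.000770). In the fit first given 0 of the 6 genes were called, against 0.556% of all genes tested. The same 3 had an unadjusted p under 0.05, in this direction, as did 7.05% of all genes. Both control libraries were above all 4 others for NPPA and NPPB, an order held in this direction by 11.3% of all genes, while ANKRD1 overlapped in 1 alcohol library.

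None of 10 cardiomyocyte markers was called. Against control 4 were higher and 6 lower in alcohol, and 3 higher and 7 lower in co-treated cells. Of all genes 50.6% and 50.2% were lower. At an unadjusted p under 0.05 (edgeR), 2 were lower and 0 higher in alcohol, against 5.78% and 5.27% of all genes. In co-treated cells 3 were lower and 1 higher, against 6.37% and 6.26%. The largest fall was that of ACTC1, the cardiac actin. Its log2 fold change was −0.55 in alcohol (edgeR adjusted p = 0.581) and −0.85 in co-treated cells (adjusted p = 0.290). MYL3, a ventricular light chain, had a log2 fold change of −0.46 in alcohol (edgeR adjusted p = 0.257) and −0.54 in co-treated cells (adjusted p = 0.133), and TNNC1, cardiac troponin C, had −0.45 (edgeR adjusted p = 0.298) and −0.49 (adjusted p = 0.210). On the other side of control lay RYR2, the calcium release channel, with 0.18 (edgeR adjusted p = 0.643) and 0.29 (adjusted p = 0.350). The mean log2 CPM of the 10 was 11.17 and 10.96 in control, 11.14 and 10.69 in alcohol, and 10.85 and 10.86 in co-treated cells, so alcohol replicate 2 was lowest here as well. As a difference relative to this mean, NPPA was at −0.55 in alcohol and −0.49 in co-treated cells against control. NPPB was at −1.25 and −1.67, and ANKRD1 at −0.64 and −1.29, on the same log2 scale. These differences are a description with no test, relative to a mean over markers that lay on both sides of control.

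**Figure D4:**
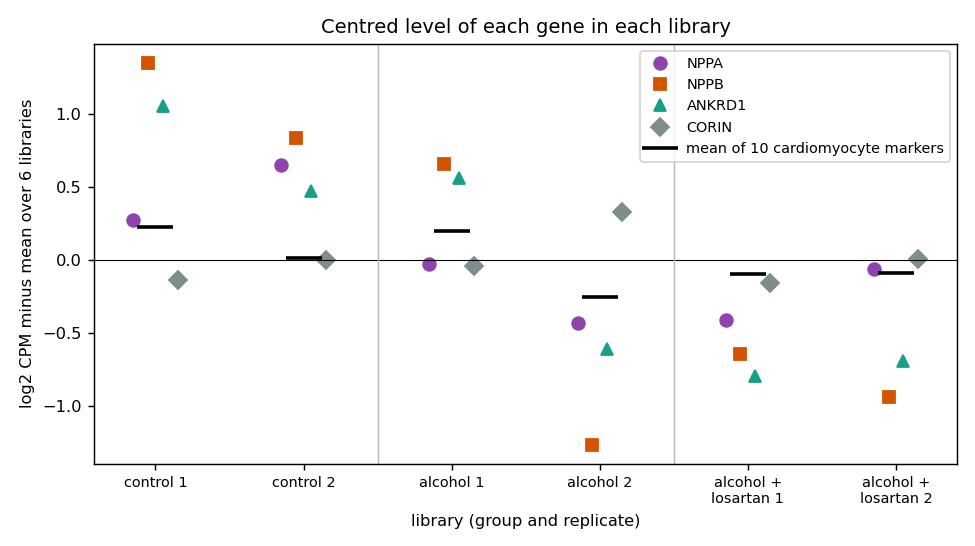
Log2 CPM of NPPA, NPPB, ANKRD1 and CORIN in each of the 6 libraries, each gene centred on its mean over the libraries (vertical axis), beside the mean of 10 cardiomyocyte markers centred in the same way (black bars). NPPB and ANKRD1 are high in both control libraries and in alcohol replicate 1 and low in the other 3, NPPA is highest in control replicate 2, and CORIN is highest in alcohol replicate 2.

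Some lists of other cell markers also differed between the groups, and others overlapped. The summed FPKM of 4 smooth muscle markers was 1926 and 1689 in control, 1451 and 722 in alcohol, and 991 and 1036 in co-treated cells, with none of the 4 at 0. Of these, ACTA2, a smooth muscle actin that immature cardiomyocytes also make, fell in co-treated cells with a log2 fold change of −1.25 (SE 0.20, edgeR adjusted p = 0.0203). Its FPKM was 507 and 580.2 in control, 337 and 203 in alcohol, and 248 and 224 in co-treated cells. The summed FPKM of 8 atrial markers, nearly all of it the atrial light chain MYL7, was 14569 and 16236 in control, 12668 and 9387 in alcohol, and 10304 and 11916 in co-treated cells. MYL7 itself had a log2 fold change of −0.52 in alcohol (edgeR adjusted p = 0.273) and −0.52 in co-treated cells (adjusted p = 0.224). The list as a whole did not go one way. Against control 4 of its 7 tested genes were higher in alcohol and 5 of 7 in co-treated cells, 0 were called, and MYBPHL, a sarcomere protein of the atria, had 0.97 (edgeR adjusted p = 0.353) and 1.04 (adjusted p = 0.264).

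The summed FPKM of 5 ventricular markers ranged from 1062 to 2346 in control, 1082 to 2833 in alcohol and 2719 to 3063 in co-treated cells. Nearly all of it was the ventricular light chain MYL2, with a log2 fold change of 0.78 in co-treated cells against control (edgeR adjusted p = 0.501). Of the 4 tested 0 were called, and IRX4, a transcription factor of the ventricles, was on the other side, with −0.51 in co-treated cells against control (edgeR adjusted p = 0.242) and −0.58 against alcohol (adjusted p = 0.760). HEY2, another ventricular factor, had 0.37 in alcohol against control (edgeR adjusted p = 0.361) and −0.34 in co-treated against alcohol cells (adjusted p = 0.885). The summed FPKM of 6 endoderm and liver-like markers was 38.5 and 36.7 in control, 49.4 and 49.5 in alcohol, and 46.7 and 48.2 in co-treated cells, with up to 2 of the 6 at 0 in a library. In this sum all 4 alcohol-containing libraries were above control. Of the 3 genes tested 0 were called, with 2 higher and 1 lower in each group against control. Of the endothelial and endocardial markers 6 were tested and 0 called. Against control 3 were higher and 3 lower in alcohol, and 4 higher and 2 lower in co-treated cells. KDR, a receptor of vascular growth factor, had 0.57 in alcohol (edgeR adjusted p = 0.235) and 0.86 in co-treated cells against control (adjusted p = 0.0502). The summed FPKM of 8 fibroblast markers overlapped between the groups. It was 371 and 336 in control, 402 and 368 in alcohol, and 381 and 361 in co-treated cells. That of 4 pluripotency markers overlapped as well, at 12.4 and 11.1, 15.1 and 12.2, and 19.1 and 10.4. Of these lists 7 and 4 genes were tested and 0 were called. The part of these markers in the results for NPPA, NPPB and ANKRD1 was not tested.

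The processing proteases did not follow the hormones. CORIN, the protease of the ANP prohormone, had an FPKM of 104 and 113 in control, 111 and 150.5 in alcohol, and 107 and 117 in co-treated cells. The groups overlapped, and the single high value was again alcohol replicate 2. Against control the log2 fold change of CORIN was 0.22 in alcohol, with a 95% interval of −0.08 to 0.53 (edgeR adjusted p = 0.611). In co-treated cells it was −0.0026, with an interval of −0.31 to 0.30 (edgeR adjusted p = 0.995).

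FURIN, the convertase of the BNP prohormone and of many other proteins, had an FPKM of 21.1 in both control libraries, 19.5 and 22.8 in alcohol, and 21.1 and 17.1 in co-treated cells. The alcohol values lay on both sides of control. The log2 fold change was −0.04 in alcohol (95% interval −0.32 to 0.24, edgeR adjusted p = 0.941) and −0.20 in co-treated cells (interval −0.48 to 0.08, adjusted p = 0.581). The intervals of both proteases exclude a change of 1 on the log2 scale in either direction.

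Among the receptors, NPR2 was the only one measured well enough to test. Its FPKM was 3.89 and 3.95 in control, 4.29 and 4.41 in alcohol, and 3.18 and 3.33 in co-treated cells, from 54 to 75 counts per library. The 3 groups did not overlap, with alcohol highest and co-treated cells lowest. The log2 fold change was 0.11 in alcohol (SE 0.21, edgeR adjusted p = 0.900), −0.31 in co-treated cells (SE 0.22, adjusted p = 0.615) and −0.42 between co-treated and alcohol cells (SE 0.22, adjusted p = 0.900). None passed the threshold. Values higher in both alcohol libraries than in both control libraries were found in 22.0% of all genes, and the lower values in co-treated than in alcohol cells in the 16.2% given above. NPR2 overlaps SPAG8 on the opposite strand, so the limit on strand applies here as well.

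NPR1, the receptor of ANP and BNP, had 2 and 1 counts in control, 2 and 2 in alcohol, and 1 and 0 in co-treated cells. The summed counts were 3 in control (exact Poisson 95% interval 0.62 to 8.77), 4 in alcohol (1.09 to 10.2) and 1 in co-treated cells (0.025 to 5.57). NPR3, the clearance receptor, had 3 and 3 counts in control, 7 and 5 in alcohol, and 4 and 2 in co-treated cells. The summed counts were 6 (2.2 to 13.1), 12 (6.20 to 21.0) and 6 (2.2 to 13.1). The intervals overlap for each receptor and cover counting error only, so no difference was detectable at this depth, and no fold change is given. NPR1 did not exceed the floor of 3 counts in any library.

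The other genes of the pathway were read as lists, which were also chosen with earlier results of these data known. Of 11 genes for peptide processing and clearance, 6 were tested and 0 were called in any comparison of 2 groups. The only unadjusted p under 0.05 (edgeR) was that of MBTPS1, higher in co-treated cells against control, as for 6.26% of all genes. The median log2 fold change was −0.15 in alcohol and −0.19 in co-treated cells, against −0.0033 and −0.0017 over all genes. NPPC, the gene of C-type natriuretic peptide, had 1 count in 1 control library and 0 in the other 5. OSTN, which encodes a peptide that binds the clearance receptor, had 0 to 2 counts. MME, which encodes neprilysin, a peptidase that breaks down the hormones, had 1 to 8 counts per library and was not tested. MBTPS1, a protease of the secretory pathway, had a log2 fold change of 0.29 in co-treated cells (SE 0.12, edgeR adjusted p = 0.334). IDE, the insulin-degrading enzyme that also cleaves natriuretic peptides, had 0.18 in co-treated against alcohol cells (edgeR adjusted p = 0.923).

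Of 16 genes that make, sense or remove cyclic GMP, 15 were tested and 0 were called. In alcohol against control 4 had an unadjusted p under 0.05 and a higher level and 1 a lower level, against 5.27% and 5.78% of all genes. The counts for co-treated cells against control were 4 and 0, against 6.26% and 6.37%. PDE1A, a phosphodiesterase switched on by calcium and calmodulin, had an FPKM of 2.13 and 2.02 in control, 4.03 and 7.46 in alcohol, and 4.39 and 4.99 in co-treated cells. All 4 alcohol-containing libraries were above both control libraries, an order whose share over all genes was not computed. In alcohol alone, 22.0% of all genes lay above control in this way. The log2 fold change of PDE1A was 1.04 in alcohol (SE 0.28, edgeR adjusted p = 0.179) and 0.84 in co-treated cells (SE 0.28, adjusted p = 0.235). ABCC5, an exporter of cyclic nucleotides, had 0.38 (edgeR adjusted p = 0.252) and 0.41 (adjusted p = 0.167). In co-treated against alcohol cells RGS2, a brake on G protein signalling, had 0.55 (edgeR adjusted p = 0.915) and VASP, an actin regulator that the cyclic GMP kinase phosphorylates, had −0.22 (adjusted p = 0.933). Over the list the median was −0.02 in alcohol and −0.23 in co-treated cells, so the higher genes were a part of it.

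Of 16 transcription factors and cofactors that are known to act on NPPA and NPPB, all were tested and 0 were called. None had an unadjusted p under 0.05 in alcohol, while in co-treated cells against control 1 did so with a higher and 3 with a lower level, against 6.26% and 6.37% of all genes. The median log2 fold change was 0.02 in alcohol and −0.08 in co-treated cells. GATA6, a GATA factor of the heart, had 0.26 in alcohol (SE 0.13, edgeR adjusted p = 0.472), and MEF2A, a factor of muscle genes, had 0.22 (adjusted p = 0.511). TBX3, a repressor of NPPA in the conduction system, had −0.56 in co-treated cells against control (SE 0.22, edgeR adjusted p = 0.316) and SRF, the serum response factor, had −0.35 (SE 0.15, adjusted p = 0.338). In co-treated against alcohol cells HAND2 had −0.32 (edgeR adjusted p = 0.857) and NKX2-5 −0.36 (adjusted p = 0.857). NKX2-5 had an FPKM of 146 and 142 in control, 149 and 151 in alcohol, and 137 and 98.8 in co-treated cells. Its difference thus rests mainly on 1 library, co-treated replicate 2.

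Of 14 other genes of the hypertrophy and stress response, 0 were called. In alcohol against control 1 had an unadjusted p under 0.05 and a higher level and 1 a lower level, against 5.27% and 5.78% of all genes, and the median was −0.10. In co-treated cells against control the counts were 1 higher and 5 lower, against 6.26% and 6.37% of all genes, and the median was −0.35. ACTA1, the skeletal actin of the embryonic and strained heart, had an FPKM of 599 and 293 in control, 351 and 75.9 in alcohol, and 151 and 198 in co-treated cells. The alcohol values overlapped control and were the most spread. For ACTA1 the log2 fold change was −1.08 in alcohol (SE 0.49, edgeR adjusted p = 0.440) and −1.40 in co-treated cells (SE 0.50, adjusted p = 0.258). FHL2, a LIM protein of the sarcomere that can restrain hypertrophic signalling, was on the other side of control, with an FPKM of 275 and 236 in control, 365 and 313 in alcohol, and 416 and 441 in co-treated cells. Its log2 fold change was 0.38 in alcohol (SE 0.14, edgeR adjusted p = 0.328) and 0.70 in co-treated cells (SE 0.14, adjusted p = 0.0506). TNFRSF12A, the receptor of the cytokine TWEAK, had −0.66 in co-treated cells (SE 0.19, edgeR adjusted p = 0.158). In co-treated against alcohol cells XIRP1, an actin-binding protein of the intercalated disc, had −0.53 (SE 0.15, edgeR adjusted p = 0.722), and MYH6, the alpha myosin heavy chain, had −0.71 (adjusted p = 0.878).

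Among 8 relatives and binding partners of ANKRD1, 7 were tested and 0 were called, with 1 higher and 1 lower gene at an unadjusted p under 0.05 in each comparison with control, where the shares of all genes were those just given. CASQ2, the calcium store protein calsequestrin that binds ANKRD1, had an FPKM of 10.7 and 7.15 in control, 4.80 and 4.50 in alcohol, and 4.73 and 5.48 in co-treated cells. Both control libraries were above all 4 others, an order held by 11.3% of all genes. CASQ2 had a log2 fold change of −0.98 in alcohol (SE 0.24, edgeR adjusted p = 0.147) and −0.85 in co-treated cells (SE 0.24, adjusted p = 0.136). MYPN, the myopalladin gene, had 0.55 (SE 0.21, edgeR adjusted p = 0.345) and 0.47 (SE 0.21, adjusted p = 0.374). TTN, the titin gene, had 0.12 in co-treated against alcohol cells (edgeR adjusted p = 0.955) and TRIM63, a ubiquitin ligase of the sarcomere, had 0.08 (adjusted p = 0.962). Over the list, co-treated cells had a median of −0.07 against control and alcohol cells −0.13.

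The 6 other genes used as readouts of YAP were all tested and 0 were called. In alcohol against control 3 were higher and 3 lower, with a median log2 fold change of −0.08 and none with an unadjusted p under 0.05. In co-treated cells against control all 6 were lower, as were 50.2% of all genes, 4 with an unadjusted p under 0.05, against 6.37% of all genes, and the median was −0.49. AJUBA, a LIM protein, had an FPKM of 41.0 and 36.6 in control, 36.2 and 25.4 in alcohol, and 27.4 and 23.7 in co-treated cells. The alcohol libraries overlapped the co-treated range, as they did for NPPB. Its log2 fold change in co-treated cells against control was −0.69 (SE 0.17, edgeR adjusted p = 0.0956). CCN1, a secreted matrix protein, had an FPKM of 25.6 and 22.5 in control, 32.5 and 24.4 in alcohol, and 14.9 and 17.9 in co-treated cells. In alcohol against control CCN1 had 0.21 (edgeR adjusted p = 0.722) and ANKRD1 −0.70 (adjusted p = 0.376), and neither was called. The log2 fold change of CCN1 in co-treated against alcohol cells was −0.81 (SE 0.18, edgeR adjusted p = 0.461). AMOTL2, an angiomotin, had −0.55 against control (SE 0.14, edgeR adjusted p = 0.123) and −0.55 against alcohol (SE 0.14, adjusted p = 0.587).

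Finally the genes whose level moved most like each of the 3 high genes were found over the 6 libraries, by the root mean square distance between log2 CPM profiles centred on their means. Among these 3, NPPB and ANKRD1 were the nearest pair, at a distance of 0.351, against 0.726 for NPPA with NPPB and 0.509 for NPPA with ANKRD1. The distance depends on the size of changes as well as on their order. The log2 CPM of NPPB, ANKRD1 and NPPA spanned 2.61, 1.85 and 1.08. Pairs of the steadier NPR2, FURIN and CORIN were nearer, at 0.157 to 0.185, and NPPA was nearer to NPR2 (0.369) than to ANKRD1. For NPPB, ANKRD1 was the second nearest of all genes tested, after ETV5 at 0.299, and SPRY4 followed at 0.353. For ANKRD1 the nearest were ETV5 at 0.205, RASD2 at 0.215 and SPRY4 at 0.226. ETV5, a transcription factor of the ETS family, had an FPKM of 7.76 and 6.15 in control, 6.33 and 2.27 in alcohol, and 3.16 and 2.70 in co-treated cells, which repeats the split of the alcohol libraries seen in NPPB. SPRY4, an inhibitor of growth factor signalling, had 6.65 and 4.83, 3.66 and 1.82, and 1.25 and 1.65. RASD2 had at most 12 counts in a library, so its profile is poorly measured.

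NPPA followed a different profile, highest in control replicate 2 where NPPB and ANKRD1 were highest in control replicate 1. Its nearest genes were CCT2, a subunit of a chaperonin, at 0.058, USP18 at 0.083 and ACLY, which makes acetyl-CoA in the cytosol, at 0.084. CCT2 had an FPKM of 75.1 and 91.4 in control, 60.0 and 50.6 in alcohol, and 47.1 and 57.7 in co-treated cells. All points share the same 6 libraries, so these distances describe the libraries and carry no test.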

How the data were processed

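RNA from 6 libraries of hiPSC-CMs, 2 per group as the sample titles give them, had been sequenced on an Illumina platform. The authors deposited an expected count and an FPKM per gene and library. The submitters' processing notes name HISAT2 2.0.4, Bowtie2 2.2.5, RSEM 1.2.12 and hg38, without their roles. The deposited expected counts are estimates, 33.9% of them not whole, and were rounded for the tests. The deposited FPKM was used for levels. Genes absent from a library's table were set to 0. The Poisson intervals and the floor of 3 counts reflect the error of counting alone, while intervals of fold changes come from edgeR and also hold the spread between libraries.

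Genes were tested with edgeR 4.0.16 (R 4.3.3), by its two-sided quasi-likelihood F test after TMM normalization. The 6 libraries entered a single fit, filterByExpr left 14926 genes, and p-values were adjusted by Benjamini-Hochberg over these, with a threshold of 0.05. Likeness used log2 CPM with a prior count of 2. Alternatives were DESeq2 1.42.0, its size factors, no filter, at least 10 counts in every library, limma 3.58.1 on log2(FPKM + 1) and log2(FPKM + 0.1), a block for the replicate number, the groups compared alone, and each library left out. The fit was tested on simulated data for alcohol against control. Of 195 changed genes among 14702, 88.9% with a log2 fold change of 2 and 57.3% with 1 were recovered, with 13 false calls, and 8 calls arose with no gene changed. The data gave 10 calls in that comparison, close to the number that arose with no gene changed. The comparison in which ANKRD1 was called was not simulated.

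The members and the gene lists were chosen with earlier results of these data known. Genes of the 6 pathway lists are named where called in any comparison of 2 groups, where among the 2 lowest p of their list in one, or where they neighbour a member. Marker lists are given by sums and counts, and their genes named were picked after their values were seen. The 3 nearest genes are named for each gene whose log2 CPM spanned at least 0.5. NPPC, OSTN, MME and SPAG8 were named after their values were seen. Coordinates are from GENCODE v29 (GRCh38) and RefSeq (GRCh38.p14). Of the listed genes, GUCY1A1, GUCY1B1, IRAG1, CCN1 and CCN2 were found by gene number under older symbols.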

Additional observations from a re-analysis of the deposited data

Results flagged for a closer look

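The values of NPR2 lay on opposite sides of control in the 2 alcohol-containing groups. Neither difference from control was called, at 0.11 in alcohol (edgeR adjusted p = 0.900) and −0.31 in co-treated cells (adjusted p = 0.615). Both alcohol libraries lay above both control libraries (FPKM 4.29 and 4.41 against 3.89 and 3.95), and both co-treated libraries lay below them (3.18 and 3.33). The difference between the groups was tested by edgeR, with a log2 fold change of −0.42 in co-treated against alcohol cells (SE 0.22, Benjamini-Hochberg adjusted p = 0.900), and did not pass the threshold. The value stayed between −0.47 and −0.33 over 14 alternatives, which all use these same libraries. The values rest on 54 to 75 counts per library.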

How the results depend on the processing

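The number of genes called moved widely, while that of the 6 members moved under fewer settings. The cause was not tested. In alcohol against control 10 genes and 0 members were called. DESeq2 called 72 genes and 1 member (NPPA), no filter 2 genes, 10 counts in every library 26, limma on log2(FPKM + 1) 0 and on log2(FPKM + 0.1) 2, and the groups compared alone 3. Each library left out in turn gave 1 to 220 genes and 0 to 3 members. In co-treated cells against control 54 genes and 1 member were called. DESeq2 called 128 genes and, among the members, NPPA but not ANKRD1. No filter gave 15 genes and 0 members, limma 2 and 3 genes and 0 members, and the groups compared alone 158 genes and 2 members. With 10 counts in every library 2 members were called. Each library left out gave 2 to 184 genes and 0 to 3 members. In co-treated against alcohol cells 2 genes were called. DESeq2 called 5, no filter 1, 10 counts in every library 0, limma on log2(FPKM + 1) 1 and the groups compared alone 4, and each library left out gave 1 to 24 genes and 0 to 2 members. For both alcohol-containing groups against control 83 genes and 0 members were called. DESeq2 called 158 genes and 1 member, no filter 27 genes, 10 counts in every library 144 genes and 3 members, and limma 0 and 5 genes. Each library left out gave 6 to 407 genes and 0 to 3 members.

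Over all genes, libraries with the same replicate number deviated together little. The correlations were 0.11 for control and alcohol, −0.02 for control and co-treated, and 0.04 for alcohol and co-treated. A correlation over all genes cannot exclude a pairing that affects some of them, so whether the numbers pair libraries was not settled. NPPB was higher in replicate 1 of every group, while NPPA and ANKRD1 changed order between groups. With the replicate block 48, 136, 5 and 256 genes and 0, 2, 0 and 3 members were called in the same order of comparisons.

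Directions reversed for 4 differences that were not called. For FURIN, the log2 fold change in alcohol against control ranged from −0.12 to 0.040 with each library left out, and was above 0 without alcohol replicate 1. For CORIN in co-treated cells against control it was 0.00089 with 10 counts in every library, 0.043 with limma on log2(FPKM + 1) and 0.044 with limma on log2(FPKM + 0.1), and it ranged from −0.088 to 0.079 with each library left out, at 0.07 without control replicate 2. For NPPA in co-treated against alcohol cells it was 0.0037 with both limma settings and ranged from −0.20 to 0.20 with each library left out, at 0.16 without co-treated replicate 1. For NPPB in co-treated against alcohol cells it ranged from −1.44 to 0.47 with each library left out. Leaving a library out leaves its group with 1, assumed to vary like the others. With 2 libraries per group and 4898287 to 5051448 counts per library, NPR1 and NPR3 could not be tested.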
